A study of Mus musculus with 4 samples.

Results

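Nkx2-5, Gata4, Gata6, Tbx5, Hand1, Hand2, Isl1, Mef2c and Tbx20 are the transcription factors most often used to describe the core of the cardiac gene program. Each was found on the arrays by the RefSeq identifier of its probe (in the order above NM_008700, NM_008092, NM_010258, NM_011537, NM_008213, NM_010402, NM_021459, NM_025282 and NM_194263), and all 9 were measured, out of 20881 genes that could be named. RNA came from mouse pluripotent stem cells that the labels call embryonic stem cells, differentiated in medium from which leukemia inhibitory factor had been left out. Flk1+ MPCs, mesodermal precursors that carry the VEGF receptor Flk1, were sorted at day 4.5. PCBs (PDGFRα+ Flk1- cardioblasts) were sorted at day 5.5 after exposure to CsAYTE, a mix of Cyclosporin A, Trolox (an antioxidant), EW7197 (an inhibitor of ALK5) and Y27632 (an inhibitor of ROCK), at each change of medium. sfPCBs, sorted at the same day 5.5, had formed spontaneously without CsAYTE, and DMSO was the control vehicle. M+CMs, sorted at day 10.5, were cardiomyocytes positive for a GFP reporter driven by the αMHC promoter. Whether they had seen CsAYTE is not given in their label, but the study describes M+CMs as derived from PCBs. The study grew its differentiating precursors on OP9 cells, a mouse stromal feeder line, and used 1 reporter ESC line for the αMHC-GFP sort.

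Each population was measured on 1 array, so no spread between cultures exists and no test between populations could be run. Errors given here are the array software's own signal errors. They cover the spot and its background, and came to about 10% of the signal for the members, or 0.20 for a log2 difference, except for Mef2c in Flk1+ MPCs. Between 73.3% and 76.2% of the 43020 non-control spots of an array were well above background. A signal is the background-subtracted spot intensity scaled so that the 75th percentile was equal on the 4 arrays. Because probes differ in how brightly they bind, a signal is set only against the same probe on another array. In RNA from sorted cells, fewer cells of a type and less RNA per cell cannot be told apart.

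These factors work as a network. Zinc-finger GATA proteins, the NK2 homeodomain protein Nkx2-5, T-box proteins and the MADS-box protein Mef2c bind together at enhancers of contractile genes and of each other's genes. Isl1, Hand2 and Mef2c are known for their roles in the progenitors of the second heart field, which build the outflow tract and right ventricle. Tbx5 and Hand1 are known from the first heart field and the left ventricle.

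Promoter sequences are shown for 4 members with a single window in the reference table. Isl1 had its highest signal in PCBs, Nkx2-5 and Tbx20 had theirs in M+CMs, and Hand2 was high in both. Each sequence is the 250 bases before the annotated start in RefSeq on mouse build GRCm38.p6, read 5′ to 3′ on the gene's own strand. The Hand2 window is chr8:57320733-57320982 on the plus strand, the Isl1 window chr13:116309689-116309938 on the minus strand, the Nkx2-5 window chr17:26841566-26841815 on the minus strand and the Tbx20 window chr9:24774304-24774553 on the minus strand. Capitals mark matches, on either strand, to 7 short motifs: AAGTG for NK2 homeodomain proteins, the GATA protein motif in the forms AGATAA and also AGATAG as well as TGATAA and further TGATAG, the T-box motif AGGTGT and the E-box CATCTG.
Hand2: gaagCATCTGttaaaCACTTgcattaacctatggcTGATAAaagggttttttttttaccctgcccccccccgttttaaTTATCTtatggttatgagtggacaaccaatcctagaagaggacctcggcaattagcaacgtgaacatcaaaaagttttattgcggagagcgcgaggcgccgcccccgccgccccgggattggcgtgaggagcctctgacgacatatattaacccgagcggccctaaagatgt
Isl1: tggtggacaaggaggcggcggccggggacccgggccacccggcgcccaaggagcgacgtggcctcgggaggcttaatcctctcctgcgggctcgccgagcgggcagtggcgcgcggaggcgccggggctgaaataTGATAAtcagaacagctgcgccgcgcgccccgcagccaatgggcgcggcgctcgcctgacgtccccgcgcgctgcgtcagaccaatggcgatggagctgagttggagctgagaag
Nkx2-5: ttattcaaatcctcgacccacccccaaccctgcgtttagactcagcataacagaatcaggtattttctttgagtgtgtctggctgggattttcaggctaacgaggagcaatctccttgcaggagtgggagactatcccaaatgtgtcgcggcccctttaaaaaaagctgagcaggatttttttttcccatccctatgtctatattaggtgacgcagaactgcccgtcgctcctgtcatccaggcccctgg
Tbx20: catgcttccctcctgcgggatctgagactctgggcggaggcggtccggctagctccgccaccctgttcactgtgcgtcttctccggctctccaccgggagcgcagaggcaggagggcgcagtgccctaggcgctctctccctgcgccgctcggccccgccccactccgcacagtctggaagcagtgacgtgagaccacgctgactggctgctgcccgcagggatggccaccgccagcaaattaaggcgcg

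The Hand2 window held 4 matches. CATCTG began 246 bases before the start, TGATAA 215 bases before it, and AAGTG and AGATAA were read on the opposite strand at 235 and 172 bases. The Isl1 window held 1 match, TGATAA at 115 bases before the start. The Nkx2-5 and Tbx20 windows held none of the 7. Mef2c had 3 listed windows, each with AAGTG, and 1 of these also held AGGTGT and another CATCTG. Among all 32851 listed windows of the same length, 40.7% held AAGTG, 9.99% AGATAA, 7.94% TGATAA, 11.8% AGGTGT and 14.4% CATCTG. A match is a string of letters and not a shown binding site. GC content was 49.2% in the Hand2 and Nkx2-5 windows, 71.2% in the Isl1 window and 68.8% in the Tbx20 window, beside a median of 52.4% over all windows.

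The labels of the sorts were first set against their own markers. Kdr, the gene of Flk1, had a signal of 24858 in Flk1+ MPCs and 5511 in sfPCBs, then 2363 in PCBs and 3993 in M+CMs. Pdgfra stood at 9136 in PCBs, 7237 in Flk1+ MPCs, 3647 in sfPCBs and 918 in M+CMs. Myh6, which encodes αMHC, rested at 40.6 and 43.5 in Flk1+ MPCs and sfPCBs, and reached 6157 in PCBs and 112738 in M+CMs. The summed signal of 12 cardiomyocyte markers was 14750 in Flk1+ MPCs and 12930 in sfPCBs, then 850361 in PCBs and 2.49e+06 in M+CMs. Markers of other cells differed between the arrays as well. The summed signal of 11 stroma or feeder-layer markers was 3893 in Flk1+ MPCs and 296591 in sfPCBs, then 175498 in PCBs and 25014 in M+CMs, with 8, 11, 10 and 11 of the 11 detected. Lum, Dcn and Postn were not well above background in Flk1+ MPCs, nor was Postn in PCBs. The part of stromal RNA in the differences between sfPCBs, PCBs and the other populations was not tested. Of 6 early mesoderm markers, T, Mesp1 and Mixl1 were not well above background in PCBs and M+CMs, whereas all 6 were in Flk1+ MPCs and sfPCBs, with summed signals of 79622 and 2883. Of 4 skeletal muscle markers, Myog and Myf5 were not well above background on any array. Myod1 was well above background only in Flk1+ MPCs, at 29.3. Pax7 read 51.0 in Flk1+ MPCs, 27.3 in sfPCBs and 24.3 in M+CMs, and was not well above background in PCBs.

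All 9 cardiac factors were well above background on every array. Apart from Mef2c, every signal was at least 107 times the median of the negative control spots of its array. The factors fell into groups by where their signal peaked. Nkx2-5, Tbx5, Tbx20 and Gata6 were highest in M+CMs. Isl1 and Mef2c were highest in PCBs. Hand2 was highest in PCBs and M+CMs, which differed by less than the error. Hand1 was highest in sfPCBs, and Gata4 in Flk1+ MPCs. Over the 4 populations the widest ranges belonged to Mef2c with 81.8-fold, Nkx2-5 with 80.9-fold and Tbx5 with 76.3-fold. The range of Mef2c rests on a signal near background in Flk1+ MPCs, and with an offset of 50 it was 4.58 on the log2 scale, below those of Nkx2-5 and Tbx5 from Flk1+ MPCs to M+CMs (6.08 and 5.36). The narrowest belonged to Gata4, with 2.96-fold. Of the 27 steps between neighbouring levels of a member, 4 were under 2 errors and give no order.

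**Figure D1:**
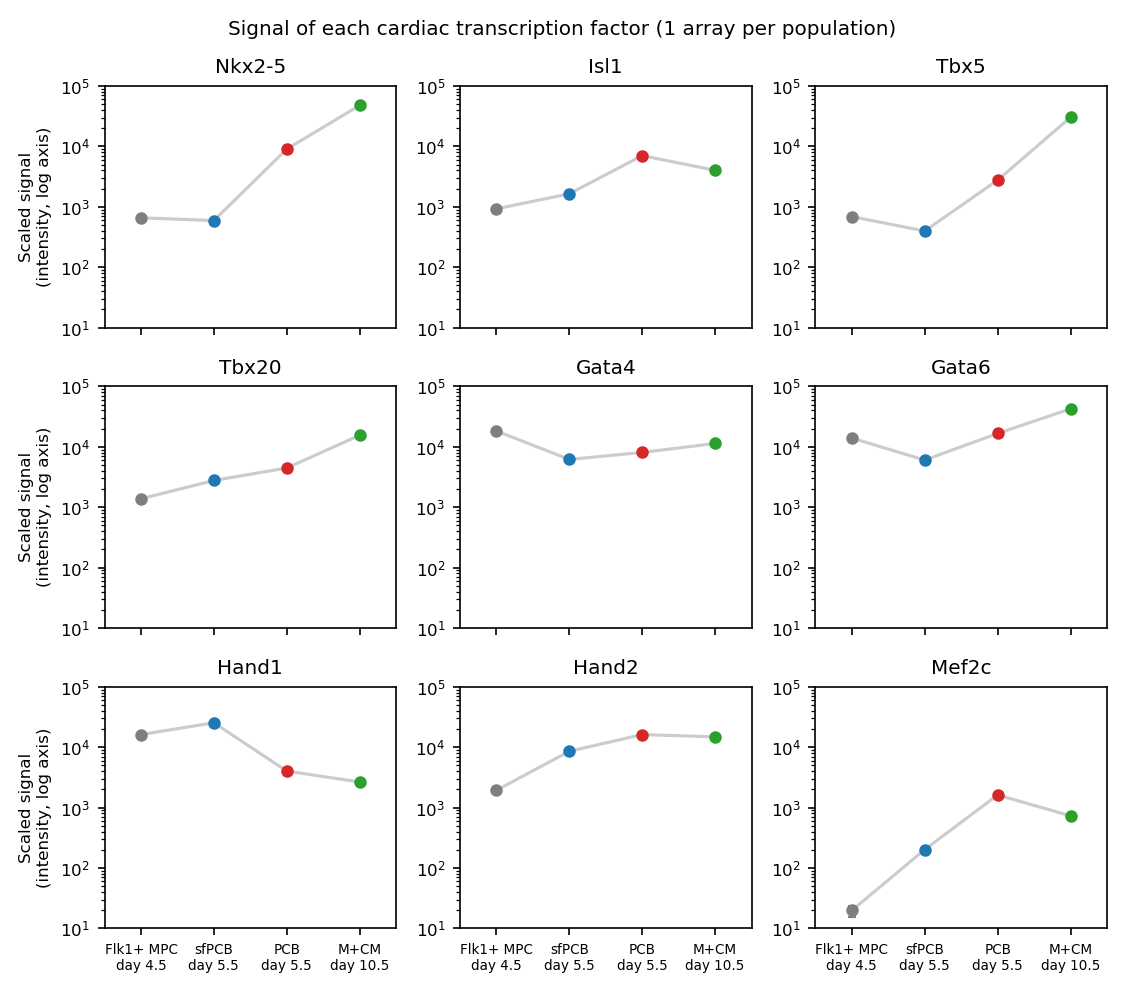
Scaled signal (intensity, log axis) of each cardiac transcription factor in Flk1+ MPCs, sfPCBs, PCBs and M+CMs; each point is 1 array, bars are the software's signal error, and grey lines only join the points, since sfPCBs and PCBs share day 5.5. Nkx2-5 and Tbx5 sit at their lowest in Flk1+ MPCs and sfPCBs and at their highest in M+CMs, whereas Isl1 and Mef2c peak in PCBs, Hand2 is high in PCBs and M+CMs, and Hand1 is high in Flk1+ MPCs and sfPCBs.

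Nkx2-5 is the homeodomain factor at the centre of the network and one of the earliest markers of committed cardiac cells. Its signal was 657 in Flk1+ MPCs and 591 in sfPCBs, then 9016 in PCBs and 47780 in M+CMs. The first 2 of these differed by less than the software error, with a log2 difference of -0.15 ± 0.20. PCBs stood 13.7-fold above Flk1+ MPCs (log2 difference 3.78 ± 0.20) and 15.3-fold above sfPCBs (3.93 ± 0.20). Against sfPCBs this placed Nkx2-5 at rank 130 from the top of 30117 detected probes. M+CMs were a further 5.30-fold above PCBs (2.41 ± 0.20). On the log2 scale, PCBs had thus covered 0.61 of the distance from Flk1+ MPCs to M+CMs, and sfPCBs -0.02 of it.

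Isl1, a LIM homeodomain factor, marks second heart field progenitors and is normally lost as these become muscle. Its probe was printed on 10 spots of each array, which gives a direct view of the technical spread: the SD between spots was 0.07 in Flk1+ MPCs and 0.11 in sfPCBs, then 0.07 in PCBs and 0.06 in M+CMs on the log2 scale. Mean signals were 924, 1641, 7023 and 4013 in the same order. PCBs were the highest, 7.60-fold above Flk1+ MPCs (2.93 ± 0.20) and 4.28-fold above sfPCBs (2.10 ± 0.20). M+CMs were 1.75-fold below PCBs (-0.81 ± 0.20) and still 4.35-fold above Flk1+ MPCs. On this probe, Isl1 in M+CMs thus lay between the levels of Flk1+ MPCs and PCBs.

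Tbx5 is the T-box factor whose loss of function causes Holt-Oram syndrome, a disorder of heart and forelimb. Its signal was 687 in Flk1+ MPCs and 397 in sfPCBs, then 2759 in PCBs and 30265 in M+CMs. sfPCBs lay 1.73-fold below Flk1+ MPCs (-0.79 ± 0.20), while PCBs lay 4.01-fold above them (2.01 ± 0.20), a value on the edge of the 4-fold limit. PCBs exceeded sfPCBs 6.96-fold (2.80 ± 0.20). Unlike Nkx2-5, Tbx5 had its larger step after the PCB stage: M+CMs were 11.0-fold above PCBs (3.46 ± 0.20), and PCBs had covered 0.37 of the log2 distance.

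Tbx20, a T-box factor that acts with Gata4 and Nkx2-5 and is needed for chamber growth, had signals of 1375, 2764, 4457 and 15505 from Flk1+ MPCs through sfPCBs and PCBs to M+CMs. Each population was above the one before it. PCBs were 3.24-fold above Flk1+ MPCs (1.70 ± 0.20) and only 1.61-fold above sfPCBs (0.69 ± 0.20). M+CMs were 3.48-fold above PCBs (1.80 ± 0.20). This last step depended on the probe. A second Tbx20 probe, for another RefSeq transcript, read 790, 2255, 2068 and 2617 over the same arrays, and another read 376, 749, 975 and 1136. Their M+CM and PCB signals differed by 0.34 and 0.22 on the log2 scale, against 1.80 for the member probe. All 3 Tbx20 probes were higher in PCBs than in Flk1+ MPCs, by 1.70, 1.39 and 1.37. Between PCBs and sfPCBs they gave 0.69, -0.12 and 0.38, so the direction there was not shared. For the other 8 members no further probe matched by RefSeq identifier.

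Gata4, a zinc-finger factor that acts early in cardiac mesoderm and endoderm, differed least. Its signal was 18271 in Flk1+ MPCs and 6173 in sfPCBs, then 8058 in PCBs and 11338 in M+CMs. Flk1+ MPCs were the highest. sfPCBs were lower by 2.96-fold (-1.57 ± 0.20) and PCBs by 2.27-fold (-1.18 ± 0.20). The 2 day 5.5 populations were within 2 errors of each other (0.38 ± 0.20). M+CMs exceeded PCBs 1.41-fold (0.49 ± 0.20) and remained 1.61-fold below Flk1+ MPCs.

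Gata6, the close relative of Gata4 with overlapping roles in the heart, had a different profile. Its signal was 13924 in Flk1+ MPCs and 6023 in sfPCBs, then 16617 in PCBs and 42458 in M+CMs. Flk1+ MPCs and PCBs did not differ beyond 2 errors (0.26 ± 0.20). sfPCBs were the lowest, 2.31-fold below Flk1+ MPCs (-1.21 ± 0.20), and PCBs were 2.76-fold above sfPCBs (1.46 ± 0.20). M+CMs were 2.56-fold above PCBs (1.35 ± 0.20).

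Hand1 and Hand2 are related basic helix-loop-helix factors, and they differed in opposite directions between PCBs and Flk1+ MPCs and between PCBs and sfPCBs. Hand1, known from the left ventricle and also from extraembryonic and lateral mesoderm, had signals of 16151 in Flk1+ MPCs and 25334 in sfPCBs, then 4015 in PCBs and 2651 in M+CMs. It was the member with its highest value in sfPCBs and its lowest in M+CMs. PCBs were 6.31-fold below sfPCBs (-2.66 ± 0.20) and 4.02-fold below Flk1+ MPCs (-2.01 ± 0.20). Of 30117 probes, Hand1 ranked 413 from the bottom in PCBs against sfPCBs. Hand2, known from the right ventricle and outflow tract, had signals of 1931, 8537, 16168 and 14801 in the same order. sfPCBs were 4.42-fold above Flk1+ MPCs (2.14 ± 0.20), PCBs 8.37-fold above them (3.07 ± 0.20), and PCBs were 1.89-fold above sfPCBs (0.92 ± 0.20). PCBs and M+CMs did not differ beyond 2 errors (-0.13 ± 0.20 for M+CMs against PCBs).

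Mef2c is the MADS-box factor that drives contractile genes and depends on Isl1 and GATA factors in the second heart field. Its signal was 19.8 ± 4.1 in Flk1+ MPCs and 201 in sfPCBs, then 1616 in PCBs and 729 in M+CMs. The Flk1+ MPC value was close to the lowest detected signals of that array, which began at 15.9, and was 5.46 times the median negative control. PCBs were 81.8-fold above Flk1+ MPCs (6.35 ± 0.33), sfPCBs 10.2-fold (3.35 ± 0.33) and M+CMs 36.9-fold (5.21 ± 0.33). Adding an offset of 50 to all signals brought the first of these to a log2 difference of 4.58 and the second to 1.85, so the folds against Flk1+ MPCs kept their direction but have no firm size. The step between the day 5.5 populations rested on brighter spots: PCBs exceeded sfPCBs 8.04-fold (3.01 ± 0.21). M+CMs were 2.22-fold below PCBs (-1.15 ± 0.20).

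Comparison of PCBs with Flk1+ MPCs asked what distinguished the cardioblasts from the precursors they came from. Of the 9 factors, 5 were at least 4-fold higher in PCBs (Nkx2-5, Tbx5, Hand2, Isl1 and Mef2c), beside 6.58% of the 30811 probes detected in at least 1 of these arrays. Hand1 was the 1 factor at least 4-fold lower, beside 3.91% of probes. Tbx5 and Hand1 lay at 4.01-fold and 4.02-fold, just past the limit, and Tbx20 at 3.24-fold was just short of it. Tbx5 was under the limit with quantile normalization, an offset of 50 or normexp background correction, at log2 differences of 1.95, 1.93 and 1.87. Hand1 was under it in 6 of the 8 alternatives, at -1.99 to -1.82. These were all the alternatives that could change it, since the rest leave the factors unchanged by construction. Only Mef2c passed the study's own limit of 30-fold, which 1.36% of probes passed, and 0 of 9 were 30-fold lower, beside 0.467%. With the offset or normexp, Mef2c read 4.58 and 4.16 on the log2 scale, and 0 of 9 passed 30-fold. The median log2 difference of the members was 2.01, beside -0.20 over all probes.

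Comparison of sfPCBs with Flk1+ MPCs gave the difference that arose without CsAYTE. Hand2 and Mef2c, 2 of 9, were at least 4-fold higher, beside 6.7% of 30689 probes, and 0 of 9 were at least 4-fold lower, beside 3.36%. None, 0 of 9, passed 30-fold in either direction, beside 1.3% higher and 0.166% lower. The median was 0.65, and -0.22 over all probes. Nkx2-5, Tbx5, Gata4 and Gata6 had lower readings in sfPCBs than in Flk1+ MPCs, the first by less than its error. Both this comparison and the preceding one use the same Flk1+ MPC array.

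PCBs and sfPCBs were sorted on the same day and differed by the CsAYTE treatment. Here 4 of 9 factors were at least 4-fold higher in PCBs (Nkx2-5, Mef2c, Tbx5 and Isl1), beside 2.13% of 30117 probes. Isl1 was under the limit, at 1.94 on the log2 scale, without scaling and in the authors' series table. Hand1 was at least 4-fold lower, beside 2.47%. At 30-fold the counts were 0 of 9, beside 0.272% higher and 0.262% lower. Gata4, Gata6, Hand2 and Tbx20 differed by less than 3-fold, with the higher reading in PCBs, Gata4 by under 2 errors and Tbx20 not with every probe. The member median was 1.46 and that of all probes 0.03. The 3 largest positive differences exceeded those of all but 0.428%, 0.830% and 0.989% of probes. Markers of endothelium and stroma differed as well. Of 6 endothelial markers tested 3 were at least 4-fold lower in PCBs, beside 3.01% of all genes. Tek read 1463 in sfPCBs and 40.4 in PCBs, and Cdh5 and Tie1, at 987 and 270 in sfPCBs, were not well above background in PCBs. Of 11 stroma or feeder-layer markers, 4 were at least 4-fold lower in PCBs (Col3a1, Lum, Dcn and Postn) and 0 at least 4-fold higher, beside 3.01% and 2.13% of all genes. Col1a2 read 175056 in sfPCBs and 109298 in PCBs, Lum 8782 and 30.2, and Fabp4 7958 and 23663. The part of these cells in the result was not tested. With 1 array each, treatment and culture cannot be told apart.

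**Figure D2:**
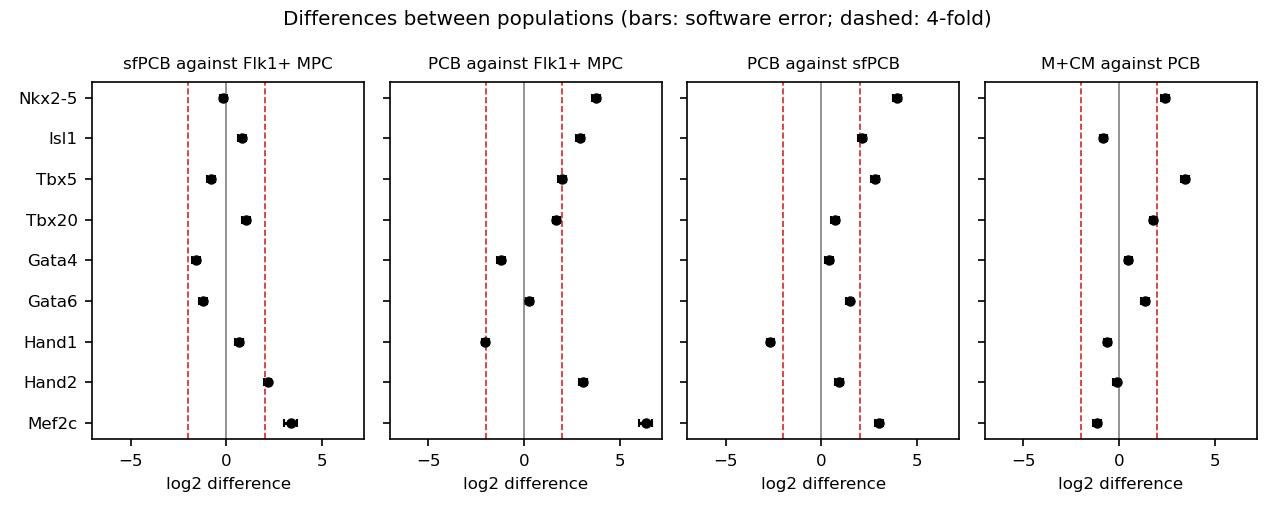
Log2 difference of each factor in 4 comparisons (points, 1 array per population; bars, software error; dashed lines, 4-fold). PCBs against sfPCBs show Nkx2-5 at 3.93, Mef2c at 3.01, Tbx5 at 2.80 and Isl1 at 2.10 to the right of the upper line and Hand1 at -2.66 to the left of the lower one.

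**Figure D3:**
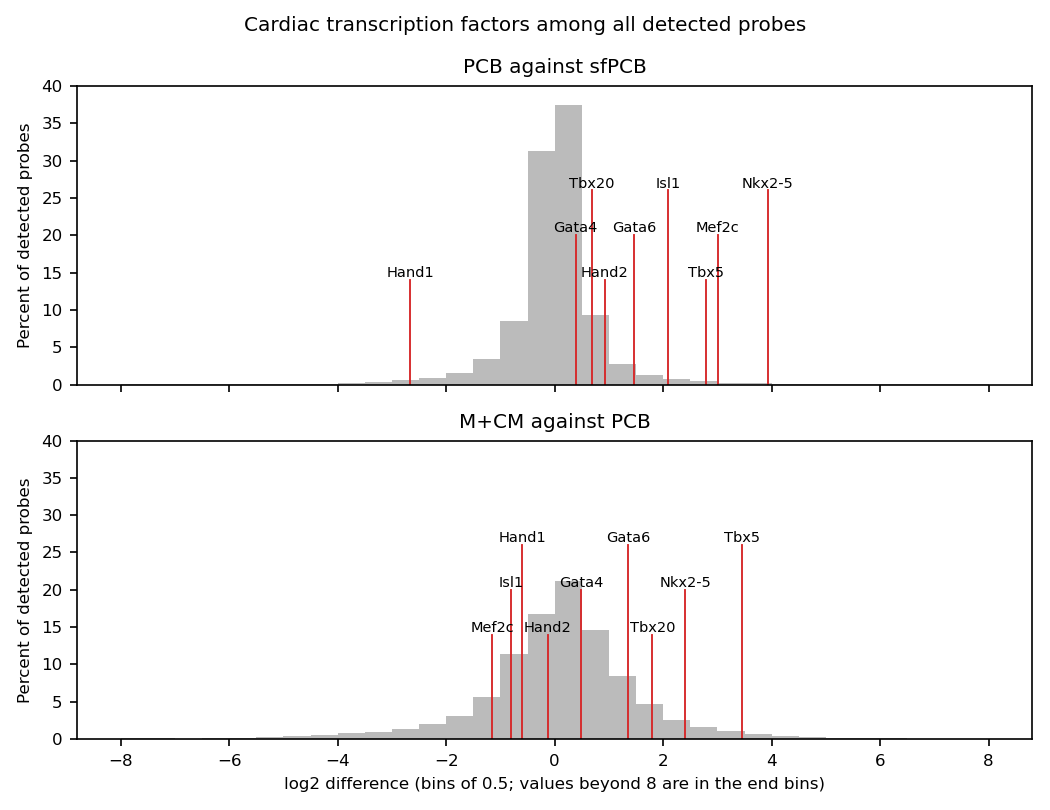
Distribution of log2 differences over all detected probes (grey bars, percent of probes in bins of 0.5) with the 9 factors as red lines, whose heights carry no value. For PCBs against sfPCBs most probes lie within 1 of zero and Nkx2-5, Mef2c, Tbx5, Isl1 and Hand1 lie in the tails, whereas for M+CMs against PCBs the distribution is wider and most factors lie inside it.

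Comparison of M+CMs with PCBs described the step to αMHC-GFP+ cardiomyocytes. The 4-fold limit was passed upwards by Tbx5 and Nkx2-5, 2 of 9, beside 7.27% of 31131 probes, and 0 of 9 passed it downwards, beside 6.73%. At the 30-fold limit the counts were 0 of 9 in both directions, beside 0.646% and 0.819%. Tbx20 and Gata6 were higher by 3.48-fold and 2.56-fold. Isl1 and Mef2c were lower by 1.75-fold and 2.22-fold. The member median was 0.49 and that of all probes 0.15. Over the whole interval from Flk1+ MPCs to M+CMs, 6 of 9 were at least 4-fold higher, beside 10.9% of 31539 probes, Tbx20 among them with the member probe only (3.49 on the log2 scale, against 1.73 and 1.60 for its other probes), and Hand1 was at least 4-fold lower, beside 8.42%. Nkx2-5 (72.8-fold), Tbx5 (44.0-fold) and Mef2c (36.9-fold) passed 30-fold, beside 1.96%, and 0 of 9 were 30-fold lower, beside 0.97%. Mef2c was under 30-fold with the offset and with normexp, at 3.48 and 3.07 on the log2 scale. Gata4 and Gata6 did not pass 4-fold between these populations.

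For Nkx2-5, Gata6, Tbx5, Hand1 and Tbx20, 5 of the 9 factors, the PCB signal lay between those of the other sorted stages, Flk1+ MPCs and M+CMs. It was above both for Hand2, Isl1 and Mef2c, and below both for Gata4. For Gata6 against Flk1+ MPCs and Hand2 against M+CMs the step was under 2 errors, so their place is not settled. For the 7 factors at least 4-fold different between Flk1+ MPCs and M+CMs, the place of each day 5.5 population was put on a scale from 0 (Flk1+ MPCs) to 1 (M+CMs) in log2 units. PCBs were at 0.37 for Tbx5, 0.49 for Tbx20, 0.61 for Nkx2-5, 0.77 for Hand1, 1.04 for Hand2, 1.22 for Mef2c and 1.38 for Isl1. sfPCBs were at -0.25 for Hand1, -0.15 for Tbx5, -0.02 for Nkx2-5, 0.29 for Tbx20, 0.39 for Isl1, 0.64 for Mef2c and 0.73 for Hand2. With the member probes, PCBs were nearer the M+CM side than sfPCBs were for each of the 7, but 1 of the other Tbx20 probes had PCBs below sfPCBs. Among the member probes of these 7, Hand2, Mef2c and Isl1, the second heart field factors, stood furthest along in both day 5.5 populations. In sfPCBs this order depended on the Tbx20 probe. The other Tbx20 probes stood 1.51 and 0.99 above Flk1+ MPCs in sfPCBs on the log2 scale, and 1.73 and 1.60 above in M+CMs. Nkx2-5, Tbx5 and Hand1 had not left, or had gone behind, the Flk1+ MPC level in sfPCBs.

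**Figure D4:**
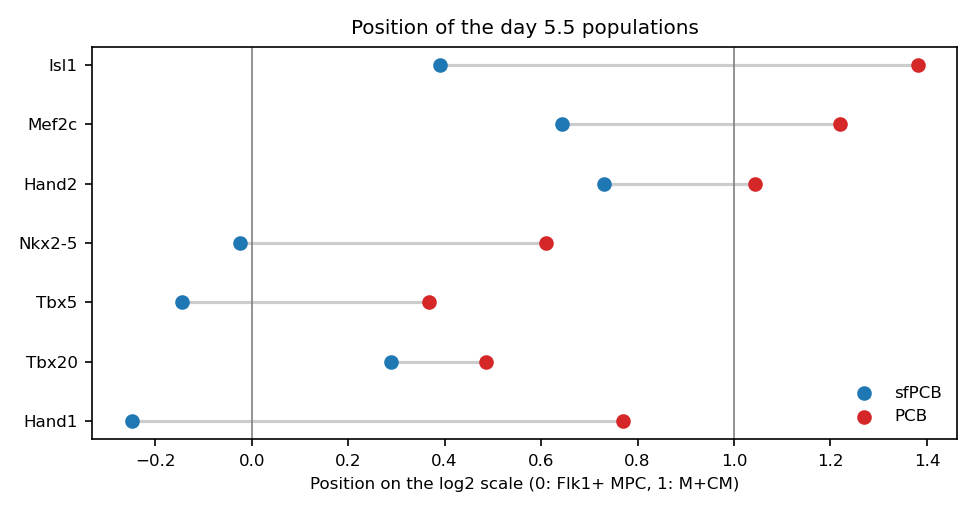
Place of sfPCBs (blue) and PCBs (red) between Flk1+ MPCs at 0 and M+CMs at 1, on the log2 scale, for the 7 factors at least 4-fold different between those ends (1 array per population, no error bars). Every red point lies to the right of its blue point, and Mef2c and Isl1 lie beyond 1 in PCBs, with Hand2 at 1.04.

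Pairs of factors were compared by the root mean square difference of their centred log2 profiles over the 4 populations, as a description. Hand2 and Isl1 were the most alike (0.53), followed by Nkx2-5 and Tbx5 (0.64). Gata4 and Gata6 were 0.91 apart, Tbx5 and Tbx20 1.34, and Hand1 and Hand2 2.35. The largest distances were those of Hand1 from Nkx2-5 and from Tbx5, the latter at 3.71. Before this, signals were raised to a common floor of 15.9, the highest of the 4 arrays' lowest detected signals. With 4 points a close profile is easily had. The search for the nearest genes ran over 6138 candidates with a range of at least 2 on the log2 scale. The range of Gata4 itself was 1.57, so genes with a range as narrow as its own were not searched. The nearest to Nkx2-5 was Myl1, a myosin light chain (0.21). Its signals of 3.24 and 3.42 in Flk1+ MPCs and sfPCBs were below the lowest detected ones and were raised to the floor, so this distance rests on it. The nearest to Tbx5 was Cacna1d, a calcium channel subunit (0.15), with Trim63, a muscle ubiquitin ligase (0.21), next. Nearest to Isl1 was Frmd3 (0.11, also below the lowest detected signal in Flk1+ MPCs), to Hand2 Cabyr (0.10), to Mef2c Npas4 (0.30), to Tbx20 Ankrd29 (0.07), to Gata6 Mllt6 (0.08), to Gata4 Jph3 (0.18) and to Hand1 Brinp1 (0.10).

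Contractile and conduction genes known as targets of these factors were taken as a list of 26. In PCBs, 20 of 26 were at least 4-fold above Flk1+ MPCs (7.37% of all genes) and 19 of 26 above sfPCBs (2.13%), with median log2 differences of 5.02 and 4.03. In sfPCBs, 8 of 25 were at least 4-fold above Flk1+ MPCs (7.77%), with a median of 0.29, and this count was 3 with the offset or normexp. At least 4-fold lower in sfPCBs were 2 of 25 (3.45%), Myl7 (6095 in Flk1+ MPCs and 588 in sfPCBs) and Myl2, which was not well above background in sfPCBs. That lower count was 1 without scaling, with the percentile over probes detected on all arrays and with normexp. Tnnt2, cardiac troponin T, read 150 in Flk1+ MPCs and 3176 in sfPCBs, then 145595 in PCBs and 403180 in M+CMs. Actc1, cardiac actin, read 4786 in Flk1+ MPCs and 4733 in sfPCBs, then 203317 in PCBs and 598466 in M+CMs. Myh7 had reached 235857 in PCBs and was at 228990 in M+CMs. In M+CMs, 15 of 26 were at least 4-fold above PCBs (7.46%), among them Tnni3, the adult troponin I, at 228 in PCBs and 105985 in M+CMs. Not all targets followed. Nppa, atrial natriuretic peptide and a classical target of Nkx2-5, Gata4 and Tbx5, read 59.2, 79.6, 182 and 495 over the 4 populations. Gja1, connexin 43, went the other way, from 3414 in Flk1+ MPCs to 1199 in PCBs and 59.0 in M+CMs.

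Other regulators of heart development, 51 in number, were more mixed. In PCBs against Flk1+ MPCs, 16 of 50 tested were at least 4-fold higher and 10 lower, where 7.37% and 4.58% of all genes were, with a median of 0.36. Myocd, the coactivator of serum response factor, was 107-fold higher (16719 against 156). Meis1, a TALE homeodomain factor, was 80.5-fold higher (27911 against 347), and Casz1, a zinc-finger factor, 49.0-fold (1086 against 22.2). The Casz1 signal in Flk1+ MPCs was near the lowest detected ones of that array, which began at 15.9, so its fold has no firm size. Lower in PCBs were the factors of early mesoderm Eomes and Mesp1. Eomes, averaged over 2 probes, read 13.5 against 21193. The PCB value lay below the lowest detected signal of that array, 15.5, so this difference has no firm size. Mesp1, at 42204 in Flk1+ MPCs, was not well above background in PCBs, a difference of at least 2714-fold. Against sfPCBs, 5 of 51 were at least 4-fold higher (2.13%) and 7 lower (3.01%), with a median of 0.11. Casz1 (32.8-fold, from a low signal of 33.1 in sfPCBs) and Myocd (17.0-fold) led. Hopx, a homeodomain-only protein, followed with 9.39-fold, and Smyd1, a muscle histone methyltransferase, with 8.55-fold. In M+CMs against PCBs, 7 of 49 were higher (7.46%) and 7 lower (7.73%). Hopx was 19.8-fold higher, and Foxh1 and Foxc2, forkhead factors of early mesoderm, were 65.4-fold and 60.1-fold lower. Nkx2-6 had 918 in PCBs and 117, 278 and 89.9 in Flk1+ MPCs, sfPCBs and M+CMs, so this relative of Nkx2-5 peaked where Isl1 did.

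A list of 31 other paralogs of the members was counted in the same way. Relatives known from the heart, such as Nkx2-6, Tbx2 and Tbx18, stand in the list of heart regulators instead. In PCBs against Flk1+ MPCs 1 of 28 tested was at least 4-fold higher and 7 lower (7.37% and 4.58% of all genes), with a median of -0.62. Lhx1, a LIM factor of early mesoderm, was 76.1-fold lower, and Tbx6, a T-box factor of paraxial mesoderm, 15.8-fold. Tbx4, the hindlimb relative of Tbx5, read 186 in Flk1+ MPCs and 489 in sfPCBs and was not well above background in PCBs, at least 31.5-fold below sfPCBs, where Tbx5 was 6.96-fold higher in PCBs. Isl2 read 376, 254, 228 and 30.6 from Flk1+ MPCs through sfPCBs and PCBs to M+CMs, and did not peak in PCBs as Isl1 did. Gata2 and Gata3, known from blood, trophoblast and other lineages, were highest in Flk1+ MPCs at 755 and 4644 and lowest in M+CMs at 191 and 1349.

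**Figure D5:**
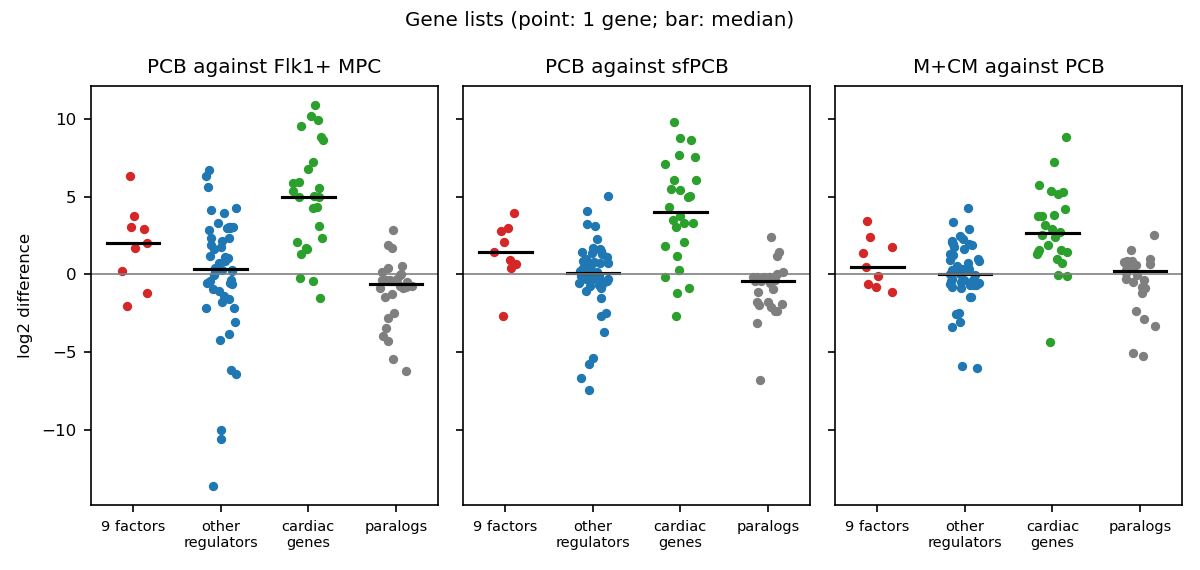
Log2 difference of each gene (points) of 4 lists, the 9 factors, other heart regulators, cardiac genes known as targets and paralogs, in 3 comparisons, with the list median as a bar; sideways spread is for legibility, and genes not well above background on 1 side are drawn at their measured value, which is no firm size. The cardiac genes have medians of 5.02, 4.03 and 2.65, the 9 factors 2.01, 1.46 and 0.49, and the paralogs lie at -0.62, -0.41 and 0.20.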

How the data were processed

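RNA of the 4 populations was hybridised to 1-colour Agilent mouse arrays. The authors deposited the spot intensity files of Feature Extraction 11.5.1.1 (per the file headers), which hold a processed signal (spot minus background), an error for it and quality flags, with no normalization between arrays. Their series table, deposited as log2 values with the scale unstated, matched log2 of the unscaled processed intensity (within 0.001 for 99.7% to 99.8% of probes), with no centring and with column medians of 6.88, 7.40, 7.19 and 7.16 for Flk1+ MPCs, sfPCBs, PCBs and M+CMs. Control spots and outlier spots were left out, arrays were scaled to a common 75th percentile, and repeated probes were averaged in log2. Probes were named through RefSeq accessions (27501 of 39428 probes, 20881 genes). A probe was detected where at least 0.5 of its spots were well above background, and probes detected on either array of a comparison entered it. Several probes of a gene were averaged in the list counts, and a gene was taken as detected if any of its probes was. Differences of at least 4-fold were counted, and a list's share is given beside all genes. A signal not well above background gave only a bound, taken at the lowest detected signal. All 9 members were described, with up to 4 genes at each end of the lists of other regulators and paralogs, chosen examples of the target list and, from profile likeness, the nearest genes. Some genes that this rule names are not reported here. Members, lists and examples were chosen with earlier results of these data known. Alternatives were quantile normalization, no scaling, the percentile over probes detected on all arrays, an offset of 50, the series table, detection in both arrays, the brightest probe, and normexp background correction with limma 3.58.1 in R 4.3.3. This last used median spot intensities, as the files used here hold no mean. Python 3.11.15, numpy 2.4.6 and pandas 2.3.3 did the rest, tested on simulated data.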

Additional observations from a re-analysis of the deposited data

How the results depend on the processing

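With 1 array per population no replicate could be left out. No paired analysis was possible because each population has 1 array and its label carries no replicate number. The 360 recomputed log2 differences of the 9 factors kept their sign except for Nkx2-5 in sfPCBs against Flk1+ MPCs, which read 0.18 without scaling and in the series table, within its error. Of these, 50 moved by more than their error, 18 without scaling and 18 in the series table. The largest shift was 2.20, for Mef2c with normexp, and 0.34 for any other factor. Counts of factors at least 4-fold apart moved in 3 comparisons. PCBs at least 4-fold above sfPCBs numbered 3 in place of 4 without scaling and in the series table, where Isl1 read 1.94. PCBs at least 4-fold above Flk1+ MPCs numbered 4 in place of 5 under quantile normalization, normexp and the offset, where Tbx5 read 1.95, 1.87 and 1.93. The number at least 4-fold lower in PCBs than in Flk1+ MPCs was 0 in place of 1 under quantile normalization, no scaling, the percentile over probes detected on all arrays, normexp, the offset and the series table, because Hand1 lay at the limit. The number with sfPCBs at least 4-fold above Flk1+ MPCs was 1 in place of 2 under normexp and the offset, where Mef2c read 1.40 and 1.85. Of 210 list counts, 27 moved by over 1.5 times, all of them in the paralog and target lists. Without scaling, the median over all probes moved from -0.22 to 0.11 in sfPCBs against Flk1+ MPCs and from 0.15 to -0.06 in M+CMs against PCBs. Counting on detection in both arrays or on the brightest probe leaves the 9 factors unchanged by construction.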
